A study of Homo sapiens with 2 samples.

Results

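The miR-15/16 family is a group of miRNAs that carry the same seed, the stretch at bases 2 to 8 with which a miRNA finds its target transcripts. The family was examined in U87MG cells, a human line established from a glioblastoma, a malignant tumour of the brain. Its members here are the 5p arms hsa-miR-15a-5p, hsa-miR-15b-5p, hsa-miR-16-5p, hsa-miR-195-5p, hsa-miR-424-5p and hsa-miR-497-5p, written below without the species prefix. The host genes DLEU2 and SMC4 were examined with them. The span of DLEU2 contains the hairpins of miR-15a and miR-16-1, and that of SMC4 those of miR-15b and miR-16-2. Whether these hairpins lie in exons or introns was not checked. These 8 members were chosen by name, as the rows of the 6 arms among 1224 listed miRNAs and of the 2 hosts among 21445 listed genes, and all 8 had a row. The series holds 1 small RNA library, with 11785001 miRNA reads, and 1 mRNA library of untreated cells of this line, grown in MEM with 10% FBS and 1% antibiotics. It has no replicate and no control cell, so no value can be compared with a spread between samples and no test was made. Intervals on shares of reads are exact Clopper-Pearson 95% intervals, and they cover counting error only.

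A miRNA is cut as a short duplex from a hairpin precursor by Drosha and Dicer, and 1 strand of the duplex, the guide, is kept by an Argonaute protein. Members of the miR-15/16 family are known as brakes on the cell cycle and on cell survival, through cyclins, cyclin-dependent kinases and BCL2. The 13q14 region that contains miR-15a and miR-16-1 is often lost in chronic lymphocytic leukaemia. miR-195, miR-497 and miR-424 come from other loci and have the same seed.

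The mature sequences are shown to make the shared seed visible, which is the part in capitals. All are written 5′ to 3′ from RefSeq on GRCh38.p14, and all 17 miRNA names of the family, its partner arms and its near relatives with a row had the same sequence in the deposited file as in RefSeq.
miR-16-5p: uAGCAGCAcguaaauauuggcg
miR-15b-5p: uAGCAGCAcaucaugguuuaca
miR-424-5p: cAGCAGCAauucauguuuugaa
miR-195-5p: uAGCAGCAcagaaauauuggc
miR-15a-5p: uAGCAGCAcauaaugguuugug
miR-497-5p: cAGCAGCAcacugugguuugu
miR-6838-5p: aAGCAGCAguggcaagacuccu
The last of these is not among the chosen arms, but was the only other listed name with the seed. Relatives with a near seed were also listed. miR-503-5p shares bases 2 to 7 and differs at base 8. miR-103a-3p and miR-107 have all 7 bases of the family seed at positions 1 to 7, so their own seed is offset by 1 base.
miR-503-5p: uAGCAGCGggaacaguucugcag
miR-103a-3p: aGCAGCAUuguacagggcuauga
miR-107: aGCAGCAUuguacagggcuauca

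Beyond the seed the family arms differ, and their likeness runs in pairs. miR-16-5p and miR-195-5p share their first 9 bases and are 3 edits apart (an edit is a base changed, added or lost). miR-15a-5p and miR-15b-5p share their first 11 bases and are 4 edits apart. For each of miR-16-5p, miR-15a-5p, miR-15b-5p and miR-195-5p its partner in these pairs was the closest of all listed miRNAs. miR-424-5p was 6 edits from its closest listed name, miR-15b-5p, and miR-497-5p was 5 edits from miR-15a-5p. How reads that match several names were counted is not stated in the labels or file headers, so the levels of names this close are less certain than their counting intervals.

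The family held a small share of the miRNA reads and was led by miR-16-5p. All 6 chosen arms had at least 10 reads, as did 51.6% of all listed miRNAs. With miR-6838-5p, the 7 names with the seed had 9731 reads, or 0.0826% of the miRNA reads (95% interval 0.0809 to 0.0842%). Among 1010 seeds ranked by summed reads the family was at rank 41, and each of the 6 arms was above the median miRNA, which had 10 reads. Directly above it was the seed led by miR-30a-3p with 9890 reads, and directly below it the seed led by miR-21-3p, the passenger strand of miR-21, with 9129 reads. The offset seed of miR-103a-3p and miR-107 had 14168 reads and was at rank 34. miR-503-5p, alone with its seed, had 627 reads and was at rank 143.

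**Figure D1:**
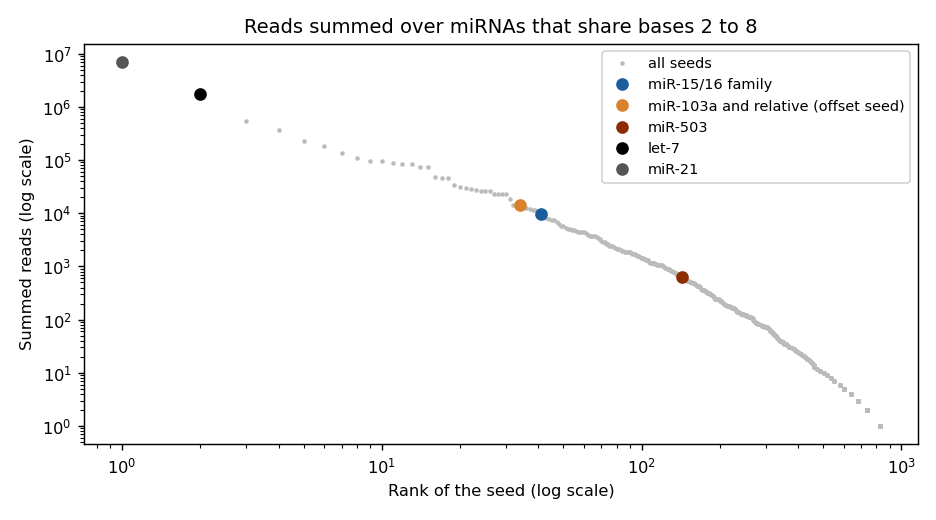
Reads summed over all miRNAs that share bases 2 to 8 (vertical axis, log scale) against the rank of that seed (horizontal axis, log scale), with 1 point for each of 1010 seeds. The miR-15/16 family is at rank 41 with 9731 reads, below the offset seed of miR-103a-3p and its relative at rank 34. The family is far below the seeds of miR-21 and let-7 at ranks 1 and 2.

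Within the family the reads were uneven. miR-16-5p had 6611 reads, 67.9% of the family's (67.0 to 68.9%) and rank 68 of all miRNAs. The names nearest to it in reads, in this 1 library, were miR-93-5p with 6822 and miR-155-5p with 6257. miR-15b-5p followed with 1779 reads, 18.3% of the family (17.5 to 19.1%) and rank 118. These are the arms that the 3q25 hairpins of SMC4 can give, although miR-16-5p can come from 13q14 as well.

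The other arms of the family were each under 1000 reads. miR-424-5p had 632 reads, or 6.49% of the family (6.01 to 7.003%). miR-195-5p had 354 reads, or 3.64% (3.27 to 4.03%). miR-15a-5p had 204 reads, or 2.10% (1.82 to 2.40%), at rank 257. miR-497-5p had 146 reads, or 1.5004% (1.27 to 1.76%), at rank 285, and miR-6838-5p had 5. In this order no interval overlapped that of its neighbour, and the smallest step was that of miR-15a-5p over miR-497-5p, 1.40 times. miR-503-5p, which does not have the family seed, had almost the same reads as miR-424-5p, 627 and 632. The intervals on their shares of all miRNA reads overlapped.

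The leading share of miR-16-5p was close to the median of such shares. Of 18 seeds with at least 3 names and 1000 reads, this family among them, 9 had a leading name with a larger share than that of miR-16-5p in its family, and the median leading share was 69.9%. The members also differed in their first base, which Argonaute proteins are known to contact. miR-16, miR-15a, miR-15b and miR-195 start with U and together held 91.95% of the family's reads. miR-424 and miR-497 start with C. Over all miRNA reads 86.8% belonged to names that start with U, and 67.9% without miR-21-5p.

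miR-16 is also abundant in red blood cells, so their markers were read beside it. Of 3 red blood cell miRNAs, miR-451a, their defining miRNA, had 7 reads, miR-486-5p had 4741 and miR-144-3p had no row. The haemoglobin genes HBB and HBA1 had no row in the mRNA library, and ALAS2, the haem synthesis enzyme of red cell precursors, was at 0.157 FPKM (fragments scaled by gene length and library size). Whether such cells gave any of the miR-16-5p reads was not tested. Of the 7 glial markers read to check the label of the cell line, VIM, an intermediate filament protein, was at 2420 FPKM, NES at 1.38 and GFAP at 0.331, and S100B, AQP4, OLIG2 and SOX2 had no row. Defining markers of mature glia were thus near 0 or had no row. Markers of neurons, immune cells and endothelium were at 0.347 FPKM or less or had no row, except SNAP25, a synaptic protein, at 16.3.

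The hairpins of the main pairs are shown because their arms tell the gene copies apart. Capitals mark the mature arms, 5p first, from RefSeq on GRCh38.p14. MIR15B at chr3:160404588-160404685 and MIR16-2 at chr3:160404745-160404825, both on the plus strand, lie inside the span of SMC4 with 59 bases between them. MIR15A at chr13:50049119-50049201 and MIR16-1 at chr13:50048973-50049061, both on the minus strand, lie inside the span of DLEU2 with 57 bases between them.
MIR15B: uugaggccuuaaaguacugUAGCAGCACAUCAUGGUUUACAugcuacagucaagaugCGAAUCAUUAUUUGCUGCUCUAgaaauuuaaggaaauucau
MIR16-2: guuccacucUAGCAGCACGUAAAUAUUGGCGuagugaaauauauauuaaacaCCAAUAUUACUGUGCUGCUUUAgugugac
MIR15A: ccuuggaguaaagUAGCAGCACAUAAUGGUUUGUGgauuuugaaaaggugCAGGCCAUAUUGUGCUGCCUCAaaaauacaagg
MIR16-1: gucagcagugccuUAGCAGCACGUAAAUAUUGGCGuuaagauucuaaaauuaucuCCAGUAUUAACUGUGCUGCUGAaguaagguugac
MIR424: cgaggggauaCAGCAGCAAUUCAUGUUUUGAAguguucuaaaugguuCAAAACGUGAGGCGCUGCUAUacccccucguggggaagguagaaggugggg
The 5p arms of MIR16-2 and MIR16-1 are identical, and their 3p arms are 4 edits apart. Reads of miR-16-5p therefore cannot be assigned to a gene copy, whereas the 3p arms have a different sequence for each copy. MIR424, at chrX:134546614-134546711 on the minus strand, is shown because its arms were used in the other order. The complement of the family seed, UGCUGCU, read on the given strand, was present in the 3p arms of MIR15B, MIR16-2 and MIR16-1 and of MIR195. It was not found in the 3p arms of MIR15A, MIR497 and MIR424. Of all 1224 listed miRNAs, 8 (0.654%) hold it, these 4 among them.

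The family's partner arms were abundant. Together the 3p arms of the family's hairpins had 4904 reads against 9726 of the 6 chosen 5p arms. That makes 33.5% of the reads of these hairpins (32.8 to 34.3%). Of the 4904 reads, 2132 were of miR-424-3p, the higher arm of its hairpin. Of the 5 names with both arms listed, with the 3p arms of miR-16 summed, 4 had at least 10% of their reads on the lower arm. Over the 169 hairpins of the library with both arms listed under 1 name and at least 100 reads, this was so in 32.5%, with a median of 4.55% on the lower arm. With so few names, and with this measure chosen after earlier results were known, the counts are a description.

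miR-424 was the member with its arms reversed. miR-424-5p, with the family seed, had 632 reads and miR-424-3p had 2132, so the 5p arm held 22.9% (21.3 to 24.5%). The 5p arm thus had 0.296 times the reads of the 3p arm, and it was at rank 183 of all miRNAs, whereas the 3p arm was at rank 110. Of the 5 names only miR-424 had the 3p arm higher, and in the library 44.4% of the 169 hairpins had it higher. The partner arm with most reads in the family was therefore miR-424-3p, which was also higher than miR-15b-5p.

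The remaining hairpins had the 5p arm higher, to very different degrees. miR-195 was closest to even, with 354 reads on the 5p arm and 251 on the 3p arm, or 58.5% 5p (54.5 to 62.5%). miR-15b had 1779 and 822, or 68.4% 5p (66.6 to 70.2%). miR-16 had 6611 reads on the 5p arm and 1696 on its 3p arms, or 79.6% 5p (78.7 to 80.4%). miR-497, from the same cluster as miR-195, had 146 and 3, or 98.0% 5p (94.2 to 99.6%). The intervals of miR-195, miR-15b, miR-16 and miR-497 did not overlap. miR-15a-5p had 204 reads and miR-15a-3p had no row. miR-503, which shares a cluster with miR-424, had 627 reads on the 5p arm and 34 on the 3p arm, or 94.9% 5p (92.9 to 96.4%), so these neighbouring hairpins differed in arm use. All 3p arms of the family's hairpins start with C, so the C at the start of miR-424-5p and miR-497-5p matches the first base of their partners.

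**Figure D2:**
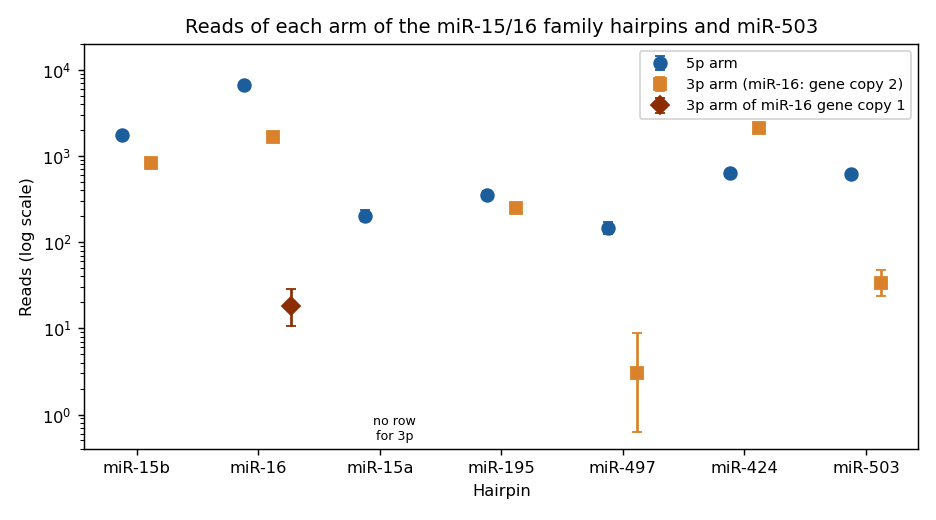
Reads (log scale) of the 5p arm (circles) and the 3p arm (squares, and a diamond for the 3p arm of the first gene copy of miR-16) of each hairpin. Bars are exact 95% Poisson intervals of the counts, which cover counting error only. The 3p arm lies above the 5p arm in miR-424 and below it in every other hairpin with both arms listed, and the 3p arm of the second gene copy of miR-16 has 1678 reads, whereas that of the first has 18.

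For the arms that tell the gene copies apart, those of 3q25 had more reads than those of 13q14. miR-16-2-3p, from 3q25, had 1678 reads and miR-16-1-3p, from 13q14, had 18. The ratio was 93.2 (58.8 to 158), and the 13q14 copy held 1.06% of these 3p reads (0.630 to 1.67%). The 3p names are 4 edits apart, and how reads that match several names were counted is not stated. With only 18 reads on the lower name, the ratio is less certain than its counting interval. miR-15b-5p, from 3q25, had 1779 reads and miR-15a-5p, from 13q14, had 204, a ratio of 8.72 (7.54 to 10.1). The intervals of these ratios do not overlap. They compare a pair of partner strands and a pair of guide strands, and how much of each strand is kept was not measured. Since miR-16-5p itself is the same from both loci, its split between them is not known.

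Leaving out miR-16-5p, the reads of both arms were summed for each locus. The 3q25 pair had 4279 reads and the Xq26 pair of miR-424 and miR-503 had 3425. The 17p13 pair of miR-195 and miR-497 had 754 reads, and the 13q14 pair had 222. Of the reads counted in this way 49.3% came from 3q25 and 2.56% from 13q14. By these arms 13q14 was the lowest of the 4 loci. Its true place is not known, because miR-16-5p, with 6611 reads, comes from 3q25 and 13q14 in an unknown split.

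SMC4 was expressed at a high level and DLEU2 at a moderate one, both at an FPKM of 1 or more, as were 64.6% of all listed genes. SMC4, a core ATPase of the condensin complexes that compact chromosomes for mitosis, was at 62.1 FPKM and above 94.4% of the listed genes. The nearest genes in this library were SSR1 at 62.15 FPKM and WNK1 at 62.05. DLEU2, a long non-coding RNA, was at 7.34 FPKM and above 63.0% of all listed genes, but above 48.5% of coding genes and 42.8% of genes at 1 FPKM or more. Among the 3981 long non-coding genes, which had a median of 0.600 FPKM, DLEU2 was above 94.7%. SMC4 was thus 8.47 times as high as DLEU2, on the FPKM scale, with no error available.

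The hosts of the other loci were lower. MIR503HG, the long non-coding RNA beside miR-424 and miR-503, was at 4.14 FPKM. MIR497HG, whose span contains the hairpins of miR-195 and miR-497, was at 0.142 FPKM, above 8.88% of the listed genes. In the RefSeq spans MIR503 lies within MIR503HG, whereas MIR424 does not lie wholly within it. The order of the hosts by FPKM was SMC4, DLEU2, MIR503HG and MIR497HG, whereas the order of the loci by reads without miR-16-5p was 3q25, Xq26, 17p13 and 13q14. The places of 3q25 and 13q14 in the second order could change with the split of the miR-16-5p reads. MIR497HG was last by FPKM with 754 reads at its locus. DLEU2 was second by FPKM with 222 reads at its locus, miR-16-5p left out and miR-15a-3p without a row. FPKM measures the host transcript and the reads measure mature strands, so the values share no scale. No hairpin gene of the family had a row of its own in the gene table, where 29 other miRNA hairpin genes did.

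**Figure D3:**
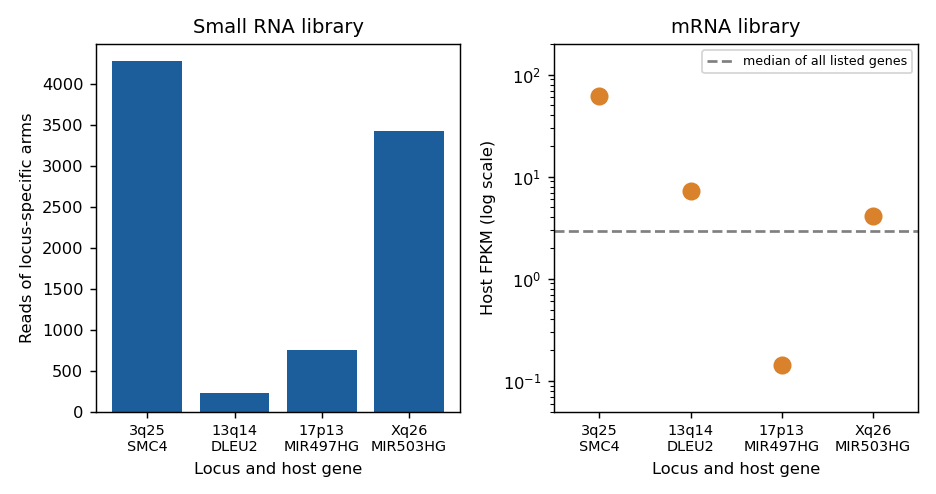
Left, reads of all arms from each locus without miR-16-5p (bars from 0). Right, FPKM of the host gene of that locus in the mRNA library (log scale), with the median of all listed genes, 2.96 FPKM, as a dashed line. The gene shown for Xq26, MIR503HG, does not wholly contain MIR424 in its span. With miR-16-5p left out, the 3q25 locus and SMC4 are highest in both panels, whereas 13q14 has 222 reads beside a host at 7.34 FPKM and 17p13 has 754 reads beside a host at 0.142 FPKM.

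SMC4 was the highest of the condensin genes. All 8 condensin subunits of the list reached 1 FPKM, as did 77.5% of all coding genes, and their median was 21.4 FPKM beside 7.82 for all coding genes. SMC2, the partner ATPase of SMC4 in every condensin, followed at 36.3 FPKM. NCAPD2, NCAPG and NCAPH, of condensin I, were at 31.2, 15.8 and 10.9 FPKM. NCAPG2, NCAPH2 and NCAPD3, of condensin II, were at 25.8, 16.9 and 8.45 FPKM. SMC4 was thus well above the subunits with which it assembles, and the lowest of them was still above the coding median.

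The 7 listed genes near SMC4 on chromosome 3 were lower than SMC4. They are the coding genes up to 5 steps after it, IFT80 directly before it, and SCHIP1 further out on that side. Coding genes between IFT80 and SCHIP1 were not in the list, so the 7 are not all of its neighbours. Of the 7, 6 reached 1 FPKM, or 85.7%, beside 77.5% of coding genes. The median of the 7 was 1.96 FPKM, under the coding median of 7.82. KPNA4, a nuclear import receptor, was highest at 15.9 FPKM and IFT80, a protein of cilia, was at 12.3. TRIM59, a ubiquitin ligase and the next coding gene after SMC4, was at 1.96 FPKM, and ARL14, a small GTPase, was lowest at 0.217.

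DLEU2 was close in level to some of its neighbours on chromosome 13. Of 8 neighbours 6 reached 1 FPKM, or 75%, close to the 77.5% of coding genes, and the median of the 8 was 3.06 FPKM, beside 7.82 for coding genes and 2.96 for all listed genes. KPNA3, a nuclear import receptor, was above DLEU2 at 11.9 FPKM, and TRIM13, a ubiquitin ligase, was just below it at 7.06. RNASEH2B, a subunit of RNase H2, was at 6.84 FPKM, DLEU1, another long RNA of the region, at 3.37, KCNRG, a regulator of potassium channels, at 0.937 and DLEU7 at 0.123. The RefSeq spans of TRIM13, KCNRG and DLEU1 overlap that of DLEU2. Whether the authors counted by strand is not stated in the labels or file headers, so reads in these overlaps could have gone to either gene. DLEU2L, a gene with a sequence like that of DLEU2, was at 0.720 FPKM, and reads could be shared with it too.

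**Figure D4:**
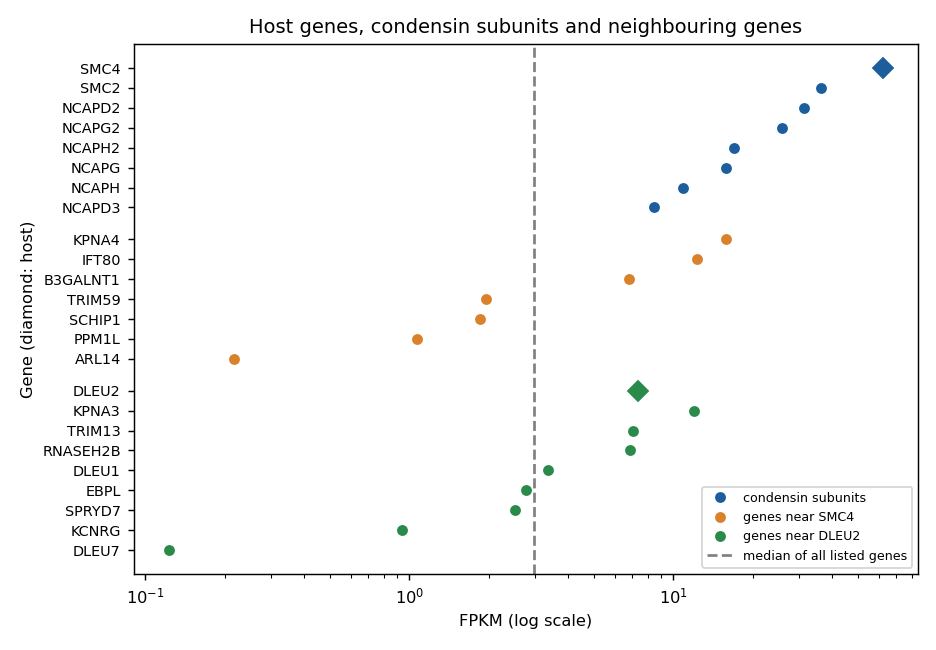
FPKM (log scale) of the condensin subunits, of the genes near SMC4 and of the genes near DLEU2, with the hosts as diamonds and the median of all listed genes as a dashed line. SMC4 lies above all other condensin subunits and all of the listed genes near it, whereas DLEU2 at 7.34 FPKM lies between KPNA3 and TRIM13.

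Genes for proteins that process these hairpins or act on the finished miRNAs were read next. All 12 of the list reached 1 FPKM, beside 77.5% of coding genes, and their median was 18.2 FPKM, beside 7.82 for coding genes. ERH and SAFB2, which are known to help Drosha cut the suboptimal hairpin of miR-15a next to that of miR-16-1, were at 89.4 and 21.8 FPKM, and the related SAFB was at 17.1. KHSRP, an RNA-binding protein that promotes processing of some precursors, was at 73.3 FPKM. DROSHA was at 30.1 FPKM and its partner DGCR8 at 9.12. ZSWIM8, a ubiquitin ligase adaptor through which Argonaute proteins bound to certain miRNAs are degraded, was at 23.9 FPKM. DICER1 was at 19.3 FPKM. Of the Argonaute genes, AGO3 was at 14.5 FPKM, AGO2 at 12.6, AGO1 at 7.29 and AGO4, the lowest of the list, at 4.70.

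Of 6 factors reported to act on transcription of the hosts, 5 (83.3%) were at 1 FPKM or more, beside 77.5% of coding genes, and PAX5, a B cell factor, had no row. HDAC3, a histone deacetylase, was at 30.7 FPKM and MYC, a growth-promoting factor, at 26.9. The E2F factors, which drive genes of S phase, were at 19.9 FPKM for E2F1, 7.84 for E2F3 and 4.67 for E2F2.

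Genes reported elsewhere as targets of the family were mostly expressed. Of 26, 23 were at 1 FPKM or more, that is 88.5%, beside 77.5% of all coding genes. Their median was 16.7 FPKM, beside 7.82 for all coding genes and 2.96 for all listed genes, and 18 of the 26 were above the coding median. The list was drawn from well-studied genes of growth and the cell cycle. Without cells in which the family was changed, these levels bear on no effect of the family on them.

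The best known target of the family, BCL2, a protein that blocks cell death, was at 0.604 FPKM. MCL1, another survival protein, was at 87.4 FPKM. The G1 cyclins, which carry cells towards S phase, covered the whole range of the list. CCND1 was the highest target at 272 FPKM, CCND3 was at 9.37, CCNE1 at 6.89 and CCND2 was the lowest at 0.0369. CDK6, the kinase partner of the D cyclins, was at 42.0 FPKM. BCL2, CCND2 and MYB, a transcription factor of blood progenitors at 0.135 FPKM, were the only targets of the list under 1 FPKM.

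Regulators of later steps of the cycle were at moderate levels. The kinases WEE1 and CHEK1, which hold cells before mitosis, were at 21.0 and 12.3 FPKM, and the phosphatase CDC25A, which releases them, was at 8.68. PPM1D, a phosphatase that ends the DNA damage signal, was at 3.88 FPKM and E2F7, a repressor of E2F genes, at 2.55.

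Targets in growth factor signalling covered a wide range. VEGFA, the main growth factor of blood vessels, was at 140 FPKM, FGF2 at 40.4 and BDNF, a neurotrophin, at 18.4. Of the receptors, FGFR1 was at 55.6 FPKM, IGF1R at 13.03 and the VEGF receptor KDR at 3.29. The kinase MAP2K1 was at 27.7 FPKM. Ligand and receptor were thus both at 1 FPKM or more for VEGFA with KDR and for FGF2 with FGFR1.

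The remaining targets were chromatin and signalling genes and genes of other roles. HMGA1, a chromatin protein, was at 102 FPKM and BMI1, a Polycomb protein, at 19.7. SMAD7, an inhibitor of TGF-beta signalling, was at 14.97 FPKM. ARL2, a small GTPase, was at 30.3, CUL2, a ubiquitin ligase scaffold, at 21.8 and RECK, an inhibitor of metalloproteinases, at 6.19.

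**Figure D5:**
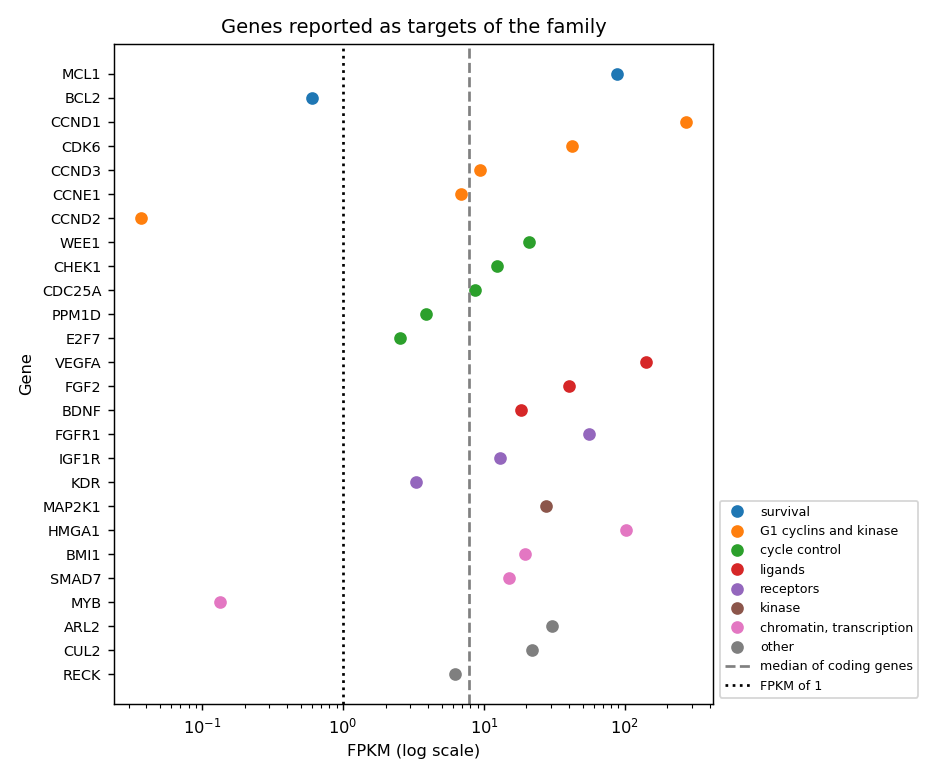
FPKM (log scale) of the 26 genes reported as targets of the family, grouped by role, with an FPKM of 1 (dotted) and the median of coding genes, 7.82 FPKM (dashed). BCL2, CCND2 and MYB lie left of the dotted line, whereas CCND1 at 272 FPKM and VEGFA at 140 FPKM are furthest right.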

How the data were processed

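The deposited small RNA files give read counts per mature miRNA and per piRNA database entry, per the file headers, not normalized by the authors. The mRNA file gives FPKM per Ensembl gene, per the file headers. The submitters' processing notes name cutadapt and the builds hg19 and GRCh37, with no role. The choice of aligner, counter, FPKM program and mRNA selection was not given in the sources used here. No read total came with the FPKM values, so their depth is unknown and no interval was computed for them. Seeds were read from the deposited mature sequences, and reads were summed over names sharing bases 2 to 8. Exact Clopper-Pearson 95% intervals came from scipy 1.17.1. Only that of the family share was checked on simulated counts, which held counting error alone. Sequences came from RefSeq on GRCh38.p14, whose gene table was used only for neighbours and for which hairpins and genes lie within a host's span. The detection minimum was 10 reads for miRNAs and 1 FPKM for genes.

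The members and gene lists were chosen with earlier results of these data known. Named were all members, names with the same or a near seed, partner arms, the nearest names in level of miR-16-5p and SMC4, and the genes of the lists, with more of each list named than the highest and lowest members where roles called for it. A few items of the lists are not reported here and were left out of the counts. An entry without a row was given no upper limit. Alternatives were other denominators, seeds, minimums and backgrounds.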

Additional observations from a re-analysis of the deposited data

How the results depend on the processing

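The share of the miR-15/16 family moved with its denominator: it was 0.201% of the miRNA reads without miR-21-5p, 0.0249% of miRNA and piRNA reads together, and 0.0879% with all names that share bases 2 to 7, against 0.0826% as reported. With only the 6 chosen arms it was 0.0825%. The rank of the seed was 40 with bases 2 to 7 and 41 with only the highest name of each sequence. All 6 arms were detected at 1 read and at 100 reads, and 2 at 1000 reads. The count at 1 read follows from that at 10 reads. The share of all listed miRNAs was computed only at 10 reads (51.6%), so the counts at other minimums have no background. SMC4 was above 91.3% of genes at an FPKM of 1 or more and 92.7% of coding genes, and DLEU2 above 42.8% and 48.5%, so whether DLEU2 lies above the middle depends on the background. Of the reported targets 24 were at an FPKM of 0.5 or more and 20 at 5 or more. The share of all coding genes was computed only at 1 FPKM (77.5%), so these 2 counts have no background. The median of the targets was 16.7 FPKM with missing rows at 0, since none was missing. Among targets at 1 FPKM or more it was 19.7, beside 12.2 for coding genes with the same filter. No paired analysis was possible because there is 1 library of each kind. The depth of 11785001 reads leaves the widest intervals, relative to their size, on miR-497-3p with 3 reads, miR-6838-5p with 5 and miR-16-1-3p with 18.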

Other observations

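The entries of the piRNA table were searched for the hairpins of the family and of miR-503. Of its 10487 entries, 5 had a stretch of 13 identical bases with one of these 8 hairpins, and 0 had a stretch of 14 or more. A mature arm of the family is at least 21 bases long, so no entry held a whole arm.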
